A study of Homo sapiens with 9 samples.

Results

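The genes described here are markers of 3 stress responses in the human melanoma line WM266-4, established from a metastasis and used here in a form that carries GFP. They comprise targets of the tumour suppressor p53 (21 listed genes), genes of the transcription factor ATF4 and amino acid stress (20) and genes of the unfolded protein response (18). A listed gene entered when the array's annotation gave it a row with exactly 1 gene symbol, and the brightest row was kept. This left 32 of 59 listed genes, out of 14812 genes measured, with 11 of p53, 13 of ATF4 and 8 of the unfolded protein response. The other 27 were not analysed here. They are CDKN1A, MDM2, FAS, ZMAT3, TNFRSF10B, FDXR, XPC, DDB2, BTG2 and POLH of p53, MTHFD2, CHAC1, SLC7A11, SLC7A5, SLC3A2, ALDH18A1 and CEBPB of ATF4, and HSPA5, HSP90B1, PDIA3, PDIA4, PDIA6, DNAJB9, DNAJB11, HERPUD1, EDEM1 and DNAJC3 of the unfolded protein response.

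The cells received miR-199a-3p as a transfected mimic, at 0.5 nM on 3 arrays and at 0.25 nM on 3 arrays, and a control microRNA at 0.5 nM on 3 arrays, all by Lipofectamine. After 48 h total RNA was measured on whole-transcript arrays, in biological triplicates per the labels. All groups are the same GFP line, so the data describe 1 line, and the control microRNA analysed here was at 0.5 nM for both comparisons. The design asks which transcripts differ between mimic and control microRNA.

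All 3 pathways turn damage into transcription. p53, stabilised after DNA damage and other insults, raises genes that halt the cell cycle, repair DNA or trigger apoptosis. ATF4 is translated when kinases phosphorylate the initiation factor eIF2, and raises genes of amino acid synthesis, amino acid import and, under lasting stress, cell death. Misfolded protein in the endoplasmic reticulum activates the sensors IRE1, PERK and ATF6, which raise chaperones and degradation factors through XBP1, ATF4 and ATF6 itself. Melanoma cells often keep p53 unmutated, and shifts of ATF4 activity go along with changes between melanoma cell states.

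The transfected mimic is taken to have the mature sequence that RefSeq (GRCh38.p14) gives for hsa-miR-199a-3p from MIR199A2 (chr1:172144554-172144575, minus strand) and MIR199A1 (chr19:10817429-10817450, minus strand). It is shown because it is the agent compared, with the seed (bases 2 to 8), the part that pairs with target transcripts, in capitals.
hsa-miR-199a-3p: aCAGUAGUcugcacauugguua

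Levels are log2 RMA intensities after shifting the arrays to one median, and changes are differences of these levels, mimic minus control. The 3 arrays of a group held the identical value in 48.6% of rows at 0.5 nM, 42.0% at 0.25 nM and 47.8% in control cells, while no row repeated a value across groups. Arrays of one group are thus not independent measures of it. A tie over all values used, in at least 1 group, was held by 14 of the 32 members and 11141 of 14812 genes. Arrays tied in this way differ after the shift by the shift alone. No label or header says whether the groups were normalized together, and a difference in processing and a difference in treatment cannot be told apart. Limma over the 9 arrays, whose error is the scatter inside each group, called 63% of all genes at 0.5 nM and 64.1% at 0.25 nM (adjusted p under 0.05), and these p-values understate the uncertainty of a treatment difference. A second test, limma on the 3 group means with each group as 1 unit, called 18 of 14812 genes (0.122%) for both doses against control, 15 lower (0.101%) and 3 higher (0.0203%). Its error comes from the difference between the doses and from genes of similar level, so a dose effect counts as noise. Replicate 1 stood apart from replicates 2 and 3 in every group. Part of the values of 0.25 nM replicate 3 had lost zeros after the decimal point and was left out, for 5 of the 32 genes. Of 12 melanocyte markers 10 were measured, and all 10 exceeded the all-gene median level on average over the arrays, with TYR at 12.76 at 0.5 nM, 12.77 at 0.25 nM and 12.74 in control cells. None of 5 keratinocyte, 2 fibroblast, 2 leukocyte and 1 endothelial markers measured lay above that median on average, and none passed the test on group means. The fibroblast marker LUM exceeded it on replicates 2 and 3 of all groups, while DCN, the other one measured, lay between 2.59 and 2.74 on every array.

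After the arrays were shifted to one median, more of these stress genes lay below control than above it at either dose. Without the shift 16 of 32 lay below control at 0.5 nM and 12 of 32 at 0.25 nM. No member passed the test on group means (0 of 32, smallest limma adjusted p = 0.411, for HYOU1), and 5 of 32 (15.6%) had an unadjusted p under 0.05, against 6.51% of all genes and 7.43% of those at or above the median level. These 5 were the endoplasmic reticulum chaperone HYOU1, the cytokine GDF15, the mTORC1 inhibitor DDIT4 and the transcription factor ATF3, all lower with mimic, and the cyclin CCNG1, higher with mimic. At 0.5 nM 24 of 32 members (75.0%) lay below control, against 48.3% of all genes, and at 0.25 nM 20 of 32 (62.5%), against 53.1%. Without the shift these shares were 50% of members, against 34.1% of all genes, at 0.5 nM, and 37.5%, against 29.3%, at 0.25 nM. In bulk RNA a lower level in each cell and fewer cells with the transcript cannot be told apart. The median change of the members was -0.08 at 0.5 nM and -0.05 at 0.25 nM, where all genes had medians of 0.01 and -0.02. Without the shift the members' medians were 0.0085 and 0.10, and those of all genes 0.099 and 0.14.

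Limma over the arrays called 12 members at 0.5 nM (37.5%), 3 higher and 9 lower, where it called 33.2% of all genes as higher and 29.8% as lower. At 0.25 nM it called 11 members (34.4%), 1 higher and 10 lower, where 30.3% of all genes were called higher and 33.9% lower. The members' shares were therefore below those of all genes, and also below those of the 7406 genes at or above the median level (52.8% and 54.9%), where 29 of the 32 members lay. Ties shrink the error of this test, and 14 of 32 members held one in at least 1 group, against 11141 of 14812 genes. The part of ties in these shares was not tested. All 3 arrays lay above all control arrays for 5 members at 0.5 nM (39.2% of all genes) and 2 at 0.25 nM (35.2%), and all 3 lay below them for 12 at 0.5 nM (34.8%) and 12 at 0.25 nM (39.1%). At both doses 17 members were lower (34.6% of all genes) and 5 higher (33.2%), and without the shift 7 were lower (17.3%) and 11 higher (53.9%). The split of calls depended on the scaling. Without the shift, which took 0.089 from the changes at 0.5 nM and 0.156 at 0.25 nM, it was 6 higher and 6 lower at 0.5 nM, where 45% of all genes were called higher and 20.1% lower. At 0.25 nM it was then 9 higher and 3 lower, where 50.7% of all genes were called higher and 17.1% lower. With quantile normalization it was 5 higher and 8 lower at 0.5 nM (31.9% and 29.3% of all genes), and 3 higher and 10 lower at 0.25 nM (30.4% and 31.3%). With the replicate number as a block 18 members passed at 0.5 nM (65.6% of all genes), 5 higher and 13 lower, and 17 at 0.25 nM (67.4%), 2 higher and 15 lower. Without replicate 1 it called 20 members at each dose, against 71.9% of all genes at 0.5 nM and 71.8% at 0.25 nM.

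**Figure D1:**
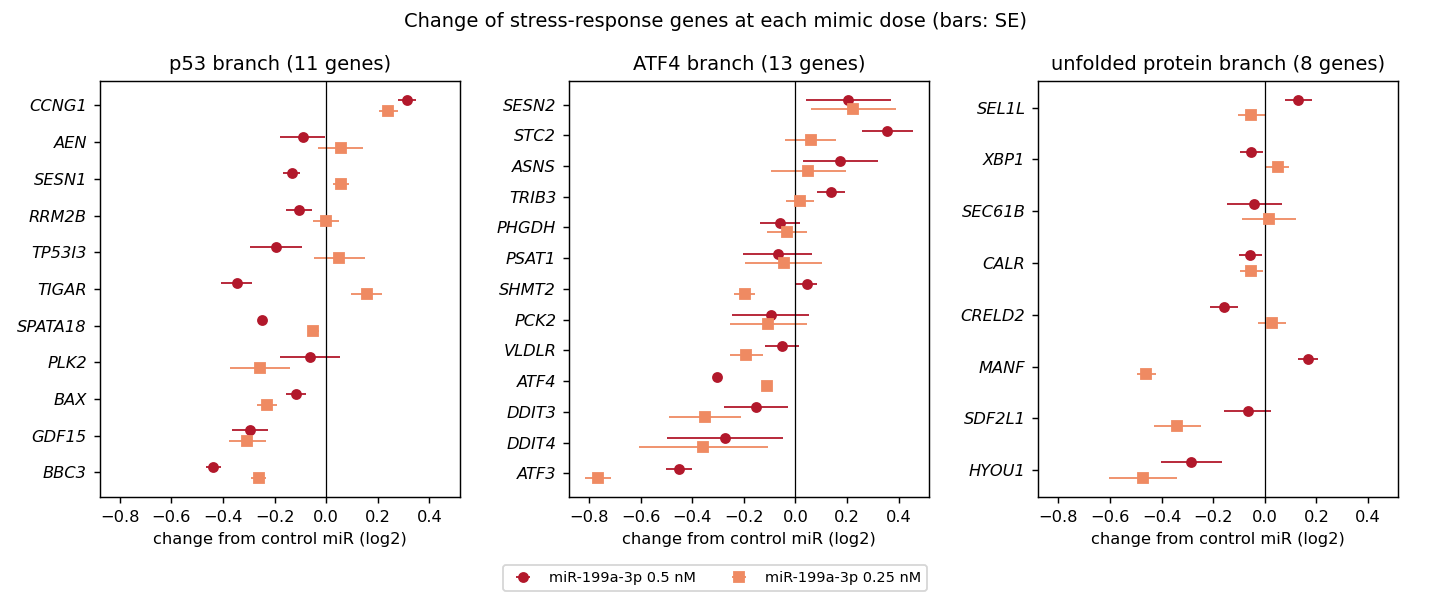
Change of each measured gene from control microRNA (x axis, log2 units) at 0.5 nM (circles) and 0.25 nM (squares) of mimic, by pathway, with genes ordered by their mean change. Bars are the standard error of limma over the arrays, which covers the spread within groups only. ATF3 lies lowest, at -0.45 and -0.76, and CCNG1 lies above 0 at both doses, at 0.31 and 0.24.

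Among the p53 targets, 10 of 11 lay below control at 0.5 nM and 6 of 11 at 0.25 nM, where 48.3% and 53.1% of all genes did. The median changes of the 11 were -0.13 and -0.002. Limma over the arrays called 1 higher and 6 lower at 0.5 nM (33.2% and 29.8% of all genes), and 1 and 3 at 0.25 nM (30.3% and 33.9%). Without the shift it called 1 and 4 at 0.5 nM (45% and 20.1%), and 5 and 1 at 0.25 nM (50.7% and 17.1%). BBC3 and BAX, 2 genes of the mitochondrial path of apoptosis, lay lower at both doses. BBC3, which encodes the BH3-only protein PUMA, had levels of 6.54, 6.53 and 6.65 at 0.5 nM, 6.77, 6.75 and 6.75 at 0.25 nM and 7.01, 7.01 and 7.01 in control cells. Every mimic array lay below every control array. The 3 control arrays tied exactly, as did the 3 arrays at 0.25 nM before the shift. The changes were -0.44 ± 0.029 (SE) at 0.5 nM (limma adjusted p = 6.84e-06) and -0.26 ± 0.029 at 0.25 nM (limma adjusted p = 1.40e-04), and without the shift the 0.25 nM change was -0.10 (limma adjusted p = 0.0219). For both doses on group means the change was -0.35 ± 0.20 (limma adjusted p = 0.849). BAX, the pore-forming protein that PUMA helps to activate, changed by -0.12 at 0.5 nM and -0.23 at 0.25 nM, with every mimic array below every control array. Limma over the arrays called BAX at both doses (limma adjusted p = 0.0322 and 0.00146), but without the shift at neither (limma adjusted p = 0.601 and 0.198).

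GDF15, a secreted cytokine of the TGF-beta family that p53 and the ATF4 pathway both raise, had levels of 12.35, 12.48 and 12.47 at 0.5 nM, 12.41, 12.44 and 12.42 at 0.25 nM and 12.56, 12.81 and 12.81 in control cells. All mimic arrays lay below all control arrays, and replicate 1 was the lowest array of each group. The changes were -0.30 ± 0.071 at 0.5 nM (limma adjusted p = 0.00798) and -0.31 ± 0.071 at 0.25 nM (limma adjusted p = 0.00681), and on group means -0.30 ± 0.11 (limma adjusted p = 0.518, unadjusted p = 0.0109). Between arrays of the same replicate number the difference at 0.5 nM was -0.21, -0.34 and -0.34 for replicates 1, 2 and 3. At 0.25 nM it was -0.15, -0.38 and -0.39. Without the shift GDF15 stayed lower at both doses but passed only at 0.5 nM, at -0.21 (limma adjusted p = 0.0480), and not at 0.25 nM, at -0.15 (limma adjusted p = 0.123).

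CCNG1, cyclin G1, which takes part in the feedback between p53 and MDM2, was the only one of the 11 listed p53 targets that lay higher at both doses, with and without the shift. Its levels were 9.63, 9.62 and 9.62 at 0.5 nM, 9.56, 9.54 and 9.54 at 0.25 nM and 9.22, 9.35 and 9.35 in control cells. Every mimic array was above every control array. Each mimic group held the same value on all its arrays before the shift. The changes were 0.31 ± 0.035 (limma adjusted p = 1.43e-04) and 0.24 ± 0.035 (limma adjusted p = 6.03e-04), and on group means 0.28 ± 0.13 (limma adjusted p = 0.700, unadjusted p = 0.0383).

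TIGAR, SESN1 and SPATA18 were called lower at 0.5 nM and not at 0.25 nM. TIGAR, a phosphatase that lowers glycolytic flux, lay at 7.66, 7.65 and 7.65 at 0.5 nM, 8.01, 8.23 and 8.22 at 0.25 nM and 7.93, 8.03 and 8.03 in control cells. All 0.5 nM arrays were below control, while the 0.25 nM arrays overlapped with it. Those at 0.5 nM tied exactly before the shift. The change at 0.5 nM was -0.35 (limma adjusted p = 0.00164). At 0.25 nM it was 0.16 (limma adjusted p = 0.0536, and 0.0337 with the replicate number as a block). The difference between the doses was -0.50 ± 0.06 (limma adjusted p = 2.11e-04). SESN1, a sestrin that restrains mTORC1, changed by -0.13 (limma adjusted p = 0.00856) at 0.5 nM and lay at 0.06 at 0.25 nM (limma adjusted p = 0.163). SPATA18, a mitochondrial quality control factor and the only one of these 11 under the all-gene median level, changed by -0.25 at 0.5 nM (limma adjusted p = 4.40e-05) and lay at -0.05 at 0.25 nM (limma adjusted p = 0.0791), where 1 array was left out.

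The quinone oxidoreductase TP53I3 had levels of 7.33, 7.47 and 7.44 at 0.5 nM, 7.50, 7.74 and 7.74 at 0.25 nM and 7.48, 7.55 and 7.79 in control cells. The control arrays alone spread over as much as the groups differed. Its changes of -0.19 and 0.05 did not pass (limma adjusted p = 0.130 and 0.682), although with the block the change at 0.5 nM did (limma adjusted p = 0.0371). RRM2B, the p53-inducible subunit of ribonucleotide reductase, AEN, an apoptosis-enhancing nuclease, and PLK2, a polo-like kinase, passed at neither dose, with changes of -0.10, -0.09 and -0.06 at 0.5 nM and -0.0016, 0.06 and -0.26 at 0.25 nM. PLK2 passed at 0.25 nM with the block (limma adjusted p = 0.00319). Replicate 1 was the lowest array of PLK2 in every group.

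Of 21 further p53 network genes 15 were measured, and 0 passed the test on group means (0 also at an unadjusted p under 0.05). Over the arrays limma called 2 higher and 6 lower at 0.5 nM (33.2% and 29.8% of all genes), and 6 higher and 2 lower at 0.25 nM (30.3% and 33.9%). Without the shift these counts were 3 and 3 at 0.5 nM (45% and 20.1% of all genes), and 10 and 0 at 0.25 nM (50.7% and 17.1%). With the shift, 5 of the 15 were called in opposite directions at the doses, against 12.4% of all genes. TP53INP1, a p53 cofactor, lay at -0.34 and -0.30, and TRAF4, a signalling adaptor, at 0.37 and 0.29. MDM4, the partner of MDM2 in restraining p53, lay at -0.13 at 0.5 nM (limma adjusted p = 0.242) and -0.32 at 0.25 nM (limma adjusted p = 0.0147). PMAIP1, the BH3-only protein NOXA, did not pass at either dose, at 0.20 and 0.18 (limma adjusted p = 0.400 and 0.442).

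**Figure D2:**
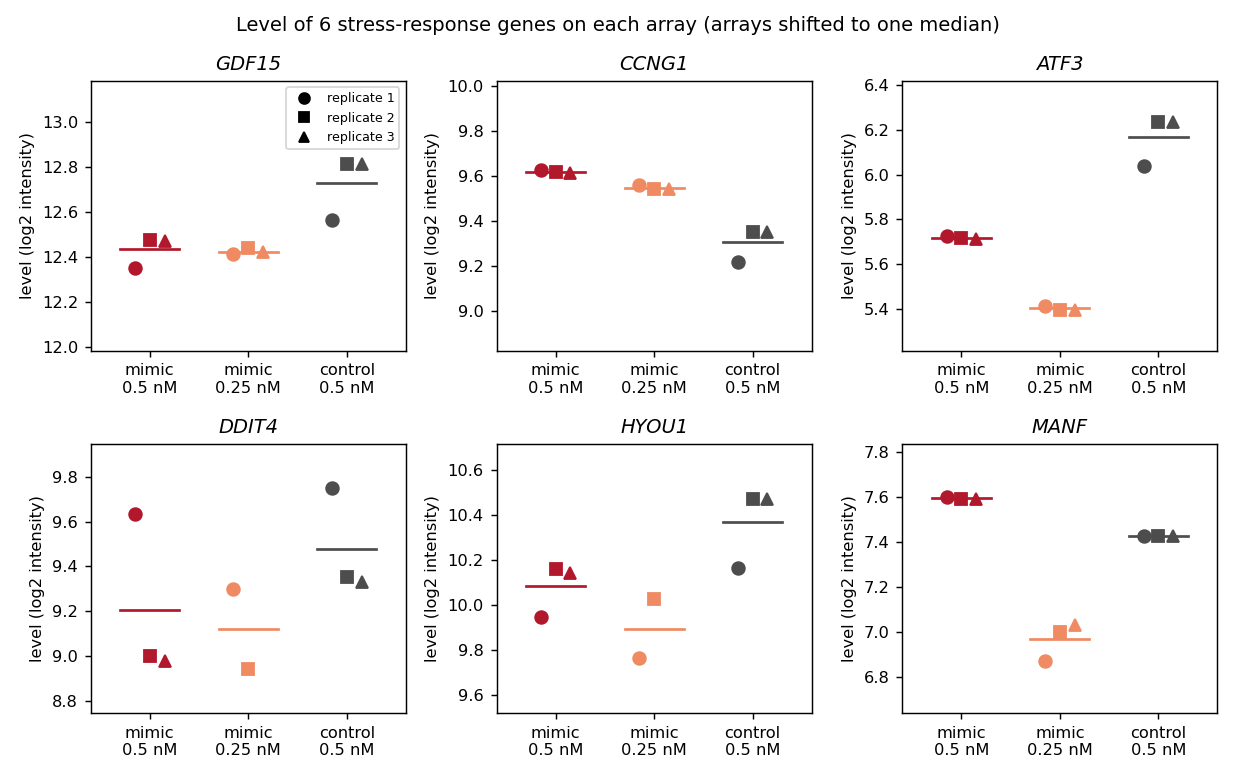
Level of 6 genes (y axis, log2 intensity after the shift) on each array, for mimic at 0.5 nM, mimic at 0.25 nM and control microRNA at 0.5 nM. Marker shapes give the replicate number, lines the group means; each panel has its own y range, and 0.25 nM replicate 3 is missing for DDIT4 and HYOU1. GDF15, ATF3 and HYOU1 lie below control in all mimic arrays, CCNG1 lies above it, and MANF lies above control at 0.5 nM and below it at 0.25 nM. Before the shift the arrays of each mimic group tied exactly for ATF3 and CCNG1.

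Of the 13 genes of the ATF4 pathway limma over the arrays called STC2 higher and ATF4 and ATF3 lower at 0.5 nM, and ATF4, ATF3, SHMT2 and VLDLR lower at 0.25 nM. ATF4 itself had levels of 9.87, 9.86 and 9.86 at 0.5 nM, 10.06, 10.06 and 10.06 at 0.25 nM and 10.16, 10.17 and 10.17 in control cells. The groups did not overlap and the arrays within each nearly tied, those at 0.5 nM exactly before the shift. Its change of -0.31 at 0.5 nM passed limma over the arrays (limma adjusted p = 5.14e-08), as did -0.11 at 0.25 nM (limma adjusted p = 1.58e-05), where without the shift it was called higher, at 0.05 (limma adjusted p = 2.56e-04). On group means the change was -0.21 ± 0.13 (limma adjusted p = 0.871).

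ATF3, a stress-induced repressor of the same family that ATF4 and other pathways raise, had the largest change of the 32 genes. Its levels were 5.73, 5.72 and 5.71 at 0.5 nM, 5.42, 5.40 and 5.40 at 0.25 nM and 6.04, 6.23 and 6.23 in control cells. The 3 groups did not overlap, with the 0.25 nM arrays lowest, and control replicate 1 lay below the other control arrays. Each mimic group held the same value on all its arrays before the shift, so its arrays differ by the shift alone. The changes were -0.45 ± 0.050 at 0.5 nM (limma adjusted p = 1.34e-04) and -0.76 ± 0.050 at 0.25 nM (limma adjusted p = 6.27e-06). The doses differed by 0.31 (limma adjusted p = 0.00103). On group means the change was -0.61 ± 0.26 (limma adjusted p = 0.635, unadjusted p = 0.0256), and without replicate 1 of every group it was -0.68 (limma adjusted p = 0.711). ATF3 and DDIT3 lay under the all-gene median level, where the test on group means assigns a larger error.

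DDIT3, the pro-apoptotic factor CHOP, lay at 5.66, 5.73 and 5.73 at 0.5 nM, 5.36 and 5.67 on 2 arrays at 0.25 nM, and 5.62, 5.98 and 5.98 in control cells. Control replicate 1 lay below the 0.5 nM arrays and the other control arrays above them. The changes of -0.15 and -0.35 missed the threshold (limma adjusted p = 0.335 and 0.0686). The block brought the 0.25 nM change past it (limma adjusted p = 0.0252). TRIB3, a pseudokinase that CHOP raises and that binds ATF4 and CHOP in feedback, had levels of 7.59, 7.39 and 7.42 at 0.5 nM, 7.42, 7.30 and 7.34 at 0.25 nM and 7.33, 7.33 and 7.33 in control cells. Its 0.5 nM arrays lay above control and its 0.25 nM arrays on both sides of it. The change of 0.14 missed the threshold (limma adjusted p = 0.0613) unless the block was used (limma adjusted p = 0.0309), and 0.02 at 0.25 nM did not pass (limma adjusted p = 0.792).

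DDIT4 and SESN2, both inhibitors of mTORC1 signalling, lay in opposite directions. The levels of DDIT4 were 9.64, 9.0002 and 8.98 at 0.5 nM, 9.30 and 8.94 on 2 arrays at 0.25 nM, and 9.75, 9.35 and 9.33 in control cells. Replicate 1 was the highest array of each group. Within a replicate number the mimic lay below control each time, with differences of -0.11, -0.35 and -0.35 at 0.5 nM for replicates 1 to 3, and -0.45 and -0.41 at 0.25 nM for replicates 1 and 2. Limma over the arrays called DDIT4 at neither dose without the block (limma adjusted p = 0.337 and 0.260) and at both with it (limma adjusted p = 0.0278 and 0.00654). On group means the change was -0.31 ± 0.13 (limma adjusted p = 0.624, unadjusted p = 0.0224).

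SESN2, the sestrin that senses leucine, had levels of 7.20, 7.42 and 7.42 at 0.5 nM, 7.20, 7.50 and 7.40 at 0.25 nM and 6.78, 7.26 and 7.39 in control cells. Replicate 1 was the lowest array of each group, and the groups overlapped. The changes of 0.20 ± 0.16 and 0.22 ± 0.16 did not pass (limma adjusted p = 0.319 and 0.272). STC2, the secreted glycoprotein stanniocalcin 2, lay at 7.15, 6.82 and 6.73 at 0.5 nM, 6.61, 6.60 and 6.60 at 0.25 nM and 6.54, 6.54 and 6.54 in control cells. All mimic arrays were above control, and the 0.5 nM arrays were the highest. STC2 tied exactly within the control group and within the 0.25 nM group before the shift. It was called at 0.5 nM, with a change of 0.36 (limma adjusted p = 0.0152), and not at 0.25 nM, with 0.06 (limma adjusted p = 0.632).

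The amino acid enzymes did not pass at 0.5 nM. ASNS, asparagine synthetase, had levels of 7.996, 7.59 and 7.48 at 0.5 nM, 7.63, 7.53 and 7.53 at 0.25 nM and 7.73, 7.42 and 7.40 in control cells. Replicate 1 was the highest array in each group, and the groups overlapped. The changes were 0.17 ± 0.14 and 0.05 ± 0.14 (limma adjusted p = 0.335 and 0.785). PHGDH and PSAT1, the first enzymes of serine synthesis, lay at -0.06 and -0.07 at 0.5 nM and at -0.03 and -0.05 at 0.25 nM. PSAT1 passed at 0.25 nM with the block alone (limma adjusted p = 0.0262), on 2 arrays. SHMT2, the mitochondrial enzyme that splits serine into glycine and a one-carbon unit, lay at 0.04 at 0.5 nM and changed by -0.20 at 0.25 nM (limma adjusted p = 0.00391). PCK2, mitochondrial phosphoenolpyruvate carboxykinase, lay at -0.10 and -0.11 and passed at neither dose. VLDLR, a lipoprotein receptor, lay at -0.05 at 0.5 nM and changed by -0.19 at 0.25 nM (limma adjusted p = 0.0371). Neither SHMT2 nor VLDLR passed at 0.25 nM without the shift (limma adjusted p = 0.371 and 0.677).

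Of 30 further genes of the ATF4 pathway 18 were measured, and 0 passed the test on group means (0 at an unadjusted p under 0.05). Limma over the arrays called 4 higher and 6 lower at 0.5 nM (33.2% and 29.8% of all genes), and 0 higher and 10 lower at 0.25 nM (30.3% and 33.9%). Without the shift it called 8 and 4 at 0.5 nM (45% and 20.1%), and 5 and 4 at 0.25 nM (50.7% and 17.1%). The list holds 10 aminoacyl-tRNA synthetases, which charge tRNAs with amino acids and were set apart here after their values were seen. At 0.25 nM 8 of the 10 were called lower and 0 higher (median change -0.13), where 33.9% of all genes were called lower and 30.3% higher. With quantile normalization 6 were called lower and 0 higher (31.3% and 30.4% of all genes), and without the shift 4 lower and 3 higher (17.1% and 50.7%). At 0.5 nM, with the shift, 3 of the 10 were called lower and 2 higher (median change -0.043), where 29.8% and 33.2% of all genes were. MARS1 lay at 0.18 at 0.5 nM and -0.32 at 0.25 nM, YARS1 at -0.07 and -0.25, and IARS1 at -0.10 and -0.23. CARS1 lay above control at both, at 0.32 and 0.10. CTH, the cystathionine lyase that yields cysteine, changed by -0.40 at 0.5 nM and -0.35 at 0.25 nM. CBS of the same list went the other way, with a change of 0.21 at 0.5 nM, and lay at 0.04 at 0.25 nM. JDP2, a repressor of the same family as ATF3, changed by 0.68 at 0.5 nM and lay at 0.09 at 0.25 nM. Of the kinases that phosphorylate eIF2, EIF2AK3 (PERK) changed by 0.36 at 0.5 nM and lay at -0.04 at 0.25 nM, and EIF2AK2 (PKR), which senses double-stranded RNA, changed by 0.05 and 0.20. EIF2AK1 changed by 0.19 at 0.25 nM, and EIF2AK4 passed at neither dose. Without the shift EIF2AK4 was called higher at both doses, at 0.12 and 0.15 (limma adjusted p = 0.00681 and 0.00227). None of these kinases passed on group means (smallest limma adjusted p = 0.966).

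**Figure D3:**
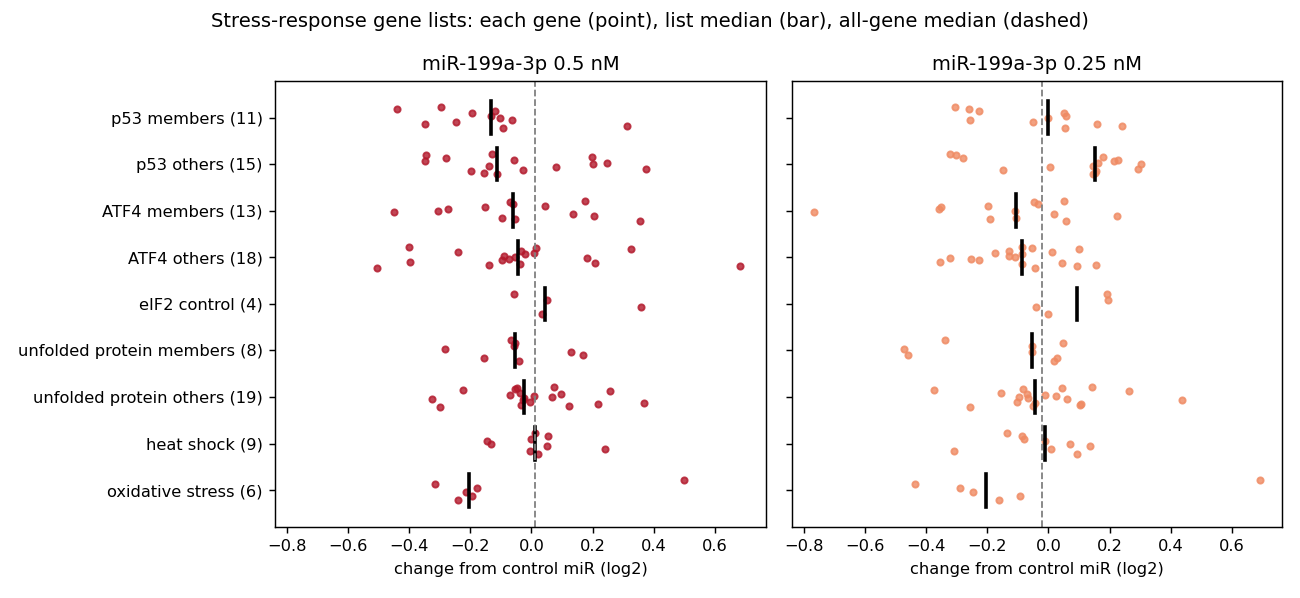
Change from control microRNA (x axis, log2 units) of each measured gene of the 3 pathways and of related gene lists, at 0.5 nM (left) and 0.25 nM (right). Points are genes, black bars list medians, and the dashed line is the median of all genes, at 0.01 and -0.02; numbers in brackets are genes measured. The lists spread to both sides of 0, and further p53 network genes have medians of -0.11 at 0.5 nM and 0.15 at 0.25 nM.

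Genes of the unfolded protein response included the chaperone HYOU1, which lay below control at both doses, and SDF2L1 and MANF, which were called lower at 0.25 nM, while XBP1, CALR and SEC61B passed at neither dose. The elements through which ATF6 and XBP1 act on this branch, ERSE (CCAAT, then 9 bases of any kind, then CCACG) and ERSE-II (ATTGG, then 1 base of any kind, then CCACG), were searched on both strands from 250 bases before to 50 bases after the RefSeq gene start (GRCh38.p14). ERSE was found in 0.0806% and ERSE-II in 0.0549% of 27305 promoters. Promoters of 30 of the 32 members were matched by symbol, 8 of them of the unfolded protein response. XBP1, CALR and CRELD2 hold ERSE, and SDF2L1 and HYOU1 hold ERSE-II, HYOU1 on 2 places that do not overlap. A match is a description of the letters, not of a site in use. Only 1 start per gene was searched, for these and the elements below, so other starts of a gene were not covered. The 250 bases before the start are shown for these 5 genes because they hold the elements, with the element in capitals.
XBP1 (chr22:28800570-28800819, minus strand): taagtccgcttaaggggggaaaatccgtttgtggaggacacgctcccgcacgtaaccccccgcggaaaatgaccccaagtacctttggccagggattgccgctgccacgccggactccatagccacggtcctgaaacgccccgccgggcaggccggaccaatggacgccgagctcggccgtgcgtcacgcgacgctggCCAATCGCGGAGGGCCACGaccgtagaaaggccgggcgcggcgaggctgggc
CALR (chr19:12938359-12938608, plus strand): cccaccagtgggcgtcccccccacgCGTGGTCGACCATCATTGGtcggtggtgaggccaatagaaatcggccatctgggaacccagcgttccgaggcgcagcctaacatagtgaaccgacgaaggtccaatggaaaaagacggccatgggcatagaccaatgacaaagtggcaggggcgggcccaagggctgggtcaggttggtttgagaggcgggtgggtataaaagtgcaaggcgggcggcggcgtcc
CRELD2 (chr22:49918384-49918633, plus strand): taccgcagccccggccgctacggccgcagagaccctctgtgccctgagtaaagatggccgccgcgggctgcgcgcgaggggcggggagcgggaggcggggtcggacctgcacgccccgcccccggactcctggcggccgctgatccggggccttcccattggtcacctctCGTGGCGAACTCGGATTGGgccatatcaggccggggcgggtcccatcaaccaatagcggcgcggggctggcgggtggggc
SDF2L1 (chr22:21642052-21642301, plus strand): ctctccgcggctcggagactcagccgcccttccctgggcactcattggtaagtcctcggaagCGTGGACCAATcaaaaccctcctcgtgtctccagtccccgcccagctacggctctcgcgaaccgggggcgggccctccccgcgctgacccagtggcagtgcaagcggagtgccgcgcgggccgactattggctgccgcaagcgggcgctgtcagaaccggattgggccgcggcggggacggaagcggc
HYOU1 (chr11:119057206-119057455, minus strand): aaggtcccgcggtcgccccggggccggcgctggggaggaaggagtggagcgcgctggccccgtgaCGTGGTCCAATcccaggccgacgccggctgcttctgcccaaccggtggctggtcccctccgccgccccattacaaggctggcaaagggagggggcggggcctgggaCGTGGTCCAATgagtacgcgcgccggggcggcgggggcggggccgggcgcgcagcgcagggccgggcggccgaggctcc

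On group means the 3 genes with ERSE lay at -0.0014 ± 0.12 (XBP1), -0.05 ± 0.11 (CALR) and -0.06 ± 0.18 (CRELD2). Those with ERSE-II lay at -0.20 ± 0.15 (SDF2L1) and -0.38 ± 0.13 (HYOU1). None of them passed (smallest limma adjusted p = 0.411, for HYOU1), and a difference between the elements was not tested. In the ATF4 branch the core of ATF4 composite elements, TGATGNAA, was found upstream of ASNS and ATF3, and in 3.67% of all promoters. The cAMP response element TGACGTCA was found in 0 of the 30 member promoters and 1.98% of all. A p53 response element with at most 2 mismatches and no spacer was found in AEN alone and in 0.271% of all promoters. The ATF4 branch is represented by the pair with the core in capitals, of which ATF3 was lower at both doses and ASNS passed at neither.
ASNS (chr7:97872409-97872658, minus strand): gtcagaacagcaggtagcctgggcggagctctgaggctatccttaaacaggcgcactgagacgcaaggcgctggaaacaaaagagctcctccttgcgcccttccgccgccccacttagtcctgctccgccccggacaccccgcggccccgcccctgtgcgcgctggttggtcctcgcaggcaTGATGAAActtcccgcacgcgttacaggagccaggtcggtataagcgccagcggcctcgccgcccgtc
ATF3 (chr1:212565157-212565406, plus strand): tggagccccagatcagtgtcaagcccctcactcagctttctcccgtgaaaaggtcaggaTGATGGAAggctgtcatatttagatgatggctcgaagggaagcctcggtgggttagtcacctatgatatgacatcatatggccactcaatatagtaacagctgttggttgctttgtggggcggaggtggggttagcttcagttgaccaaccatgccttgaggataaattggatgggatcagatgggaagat

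HYOU1, an HSP110-type chaperone that exchanges nucleotide on the chaperone BiP, had levels of 9.95, 10.16 and 10.14 at 0.5 nM, 9.77 and 10.03 on 2 arrays at 0.25 nM, and 10.16, 10.47 and 10.47 in control cells. Replicate 1 was the lowest array of each group, and every mimic array lay below every control array. The changes were -0.28 ± 0.12 at 0.5 nM (limma adjusted p = 0.0792, and 0.00117 with the block) and -0.47 ± 0.13 at 0.25 nM (limma adjusted p = 0.0201, and 0.0981 without the shift). With the short value of 0.25 nM replicate 3 kept, the change at 0.25 nM was -0.25 (limma adjusted p = 0.274) and that on group means -0.27. The call at 0.25 nM was also lost without control replicate 2 (-0.42, limma adjusted p = 0.0589), control replicate 3 (-0.42, limma adjusted p = 0.0580) or 0.25 nM replicate 1 (-0.34, limma adjusted p = 0.119). Within a replicate number the differences were -0.22, -0.31 and -0.33 at 0.5 nM, and -0.40 and -0.45 at 0.25 nM. On group means the change was -0.38 ± 0.13, with the smallest p of the members (unadjusted p = 0.00471, limma adjusted p = 0.411). Without replicate 1 of every group it was -0.38 (limma adjusted p = 0.582).

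A second row of the array is also annotated to HYOU1, dimmer and not used above. It read 6.49, 6.36 and 6.37 at 0.5 nM, 6.31, 6.12 and 6.11 at 0.25 nM and 6.95, 6.95 and 6.95 in control cells. Again every mimic array was below control and 0.25 nM was the lowest. In a fit over all 15835 rows with 1 symbol its changes were -0.55 ± 0.059 and -0.77 ± 0.059 (limma adjusted p = 1.37e-04 and 1.79e-05), where 63.9% and 64.5% of rows were called. On group means its change was -0.66 ± 0.21 (limma adjusted p = 0.368, unadjusted p = 0.00398, against 6.75% of rows under 0.05). The 2 rows come from the same 9 RNA samples.

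SDF2L1, a partner of endoplasmic reticulum J proteins, had levels of 8.61, 8.63 and 8.63 at 0.5 nM, 8.14, 8.51 and 8.41 at 0.25 nM and 8.61, 8.73 and 8.73 in control cells. The 0.5 nM arrays overlapped with control while the 0.25 nM arrays lay below it. Its change was -0.07 at 0.5 nM (limma adjusted p = 0.556) and -0.34 at 0.25 nM (limma adjusted p = 0.0131, and 0.145 without the shift). MANF, a secreted protein retained in the endoplasmic reticulum until stress, had levels of 7.60, 7.59 and 7.59 at 0.5 nM, 6.87, 7.003 and 7.03 at 0.25 nM and 7.43, 7.43 and 7.43 in control cells, and was singled out after its values were seen. It was higher than control at 0.5 nM and lower at 0.25 nM, with no overlap. The changes were 0.17 ± 0.038 (limma adjusted p = 0.00600) and -0.46 ± 0.038 (limma adjusted p = 2.37e-05), and kept their signs without the shift.

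XBP1, the factor whose spliced form drives this response, had levels of 9.88, 9.87 and 9.86 at 0.5 nM, 9.85, 10.03 and 10.03 at 0.25 nM and 9.92, 9.92 and 9.92 in control cells. The 0.5 nM arrays lay just below control and the 0.25 nM arrays on both sides of it. The values do not tell spliced from unspliced XBP1. The changes of -0.05 and 0.05 did not pass (limma adjusted p = 0.348 and 0.368). SEL1L, the adaptor of the degradation ligase HRD1, had levels of 10.36, 10.51 and 10.48 at 0.5 nM, 10.16, 10.32 and 10.32 at 0.25 nM and 10.31, 10.31 and 10.33 in control cells. Its 0.5 nM arrays lay above control and its 0.25 nM arrays overlapped with it. At 0.5 nM the change of 0.13 passed with the block (limma adjusted p = 0.0219) but not without (limma adjusted p = 0.0639), while -0.05 at 0.25 nM did not pass (limma adjusted p = 0.418).

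CRELD2, a secreted stress-induced protein with isomerase activity, changed by -0.16 at 0.5 nM (limma adjusted p = 0.0369, and 0.362 without the shift) and lay at 0.03 at 0.25 nM, where it passed as higher only without the shift, at 0.19 (limma adjusted p = 0.0313). CALR, the lectin chaperone calreticulin, lay at -0.06 and -0.05, which passed at both doses with the block (limma adjusted p = 0.00479 and 0.00580) and at neither without it (limma adjusted p = 0.309 and 0.331). SEC61B, a translocon subunit, lay at -0.04 and 0.02 and did not pass.

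Of 36 further genes of the endoplasmic reticulum 19 were measured, and 0 passed the test on group means. Only the oxidase ERO1A, which drives disulfide formation, had an unadjusted p under 0.05, at 0.0210, with changes of -0.22 at 0.5 nM and -0.37 at 0.25 nM. The test over arrays called 3 higher and 6 lower at 0.5 nM (33.2% and 29.8% of all genes), and 5 and 5 at 0.25 nM (30.3% and 33.9%). Without the shift it called 7 and 1 at 0.5 nM (45% and 20.1%), and 10 and 1 at 0.25 nM (50.7% and 17.1%). The sensor ERN1 (IRE1) lay at 0.07 at 0.5 nM and changed by 0.14 at 0.25 nM, and ATF6 changed by -0.05 and 0.04, which without the shift were 0.04 and 0.20.

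Between the doses limma over the arrays called 13 members (40.6%), 7 higher and 6 lower at 0.5 nM than at 0.25 nM, against 62.2% of all genes, 35.1% higher and 27.1% lower, and 51.4% of genes at or above the median level. Without replicate 1 it called 20 (70.1% of all genes). With the block 18 passed (65.3%), BAX no longer among them (limma adjusted p = 0.0545). MANF, at 0.63, and TIGAR, at -0.50, lay furthest apart. The spread of changes over all genes was as large between the doses (SD 0.305) as for a dose against control (SD 0.307 at 0.5 nM and 0.314 at 0.25 nM).

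Several members of the ATF4 and unfolded protein branches differed between replicate numbers in the same direction in all groups. Replicate 1 was set against the mean of replicates 2 and 3 within each group, in a comparison added after the values were seen, with 1 difference per group. DDIT4 was higher in replicate 1, by 0.65 in the 0.5 nM group, 0.36 in the 0.25 nM group and 0.41 in control cells. ASNS was higher by 0.46, 0.10 and 0.31 in the same order, and PSAT1 by 0.36, 0.21 and 0.24. These are genes of amino acid synthesis and mTORC1 control in the ATF4 branch. SESN2 of the same branch differed by -0.22, -0.25 and -0.54, and HYOU1 by -0.20, -0.26 and -0.31. Both were lowest in replicate 1 of every group. PLK2 differed by -0.22, -0.31 and -0.22.

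By limma on these 3 differences 0 of 32 members passed (smallest limma adjusted p = 0.102), while 23 genes in all did (0.155%), 13 higher in replicate 1 (0.0878%) and 10 lower (0.0675%). An unadjusted p under 0.05 was reached by 12 of 32 members (37.5%), against 10.4% of all genes and 18.3% of genes at or above the median level. They were TP53I3, PLK2 and AEN of the p53 branch, ASNS, PSAT1, PHGDH, DDIT3, DDIT4 and SESN2 of the ATF4 branch, and CALR, HYOU1 and CRELD2 of the unfolded protein branch. A gene tied in every group could show no such difference, which held for 0 of 32 members and 2630 of 14812 genes. The share of all genes is lowered by these. The fibroblast marker LUM moved with the replicate number as well, with replicate 1 differing by -1.42, -2.08 and -1.12 in the 0.5 nM, 0.25 nM and control groups, more than any member. The other fibroblast marker measured, DCN, held the same value on all arrays of each group before the shift. It could thus show no replicate difference, and its 0.01 at 0.5 nM and 0.02 at 0.25 nM come from the shift alone. The part of LUM and DCN in the members' differences was not tested. What sets replicate 1 apart is not stated in the labels and was not tested.

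**Figure D4:**
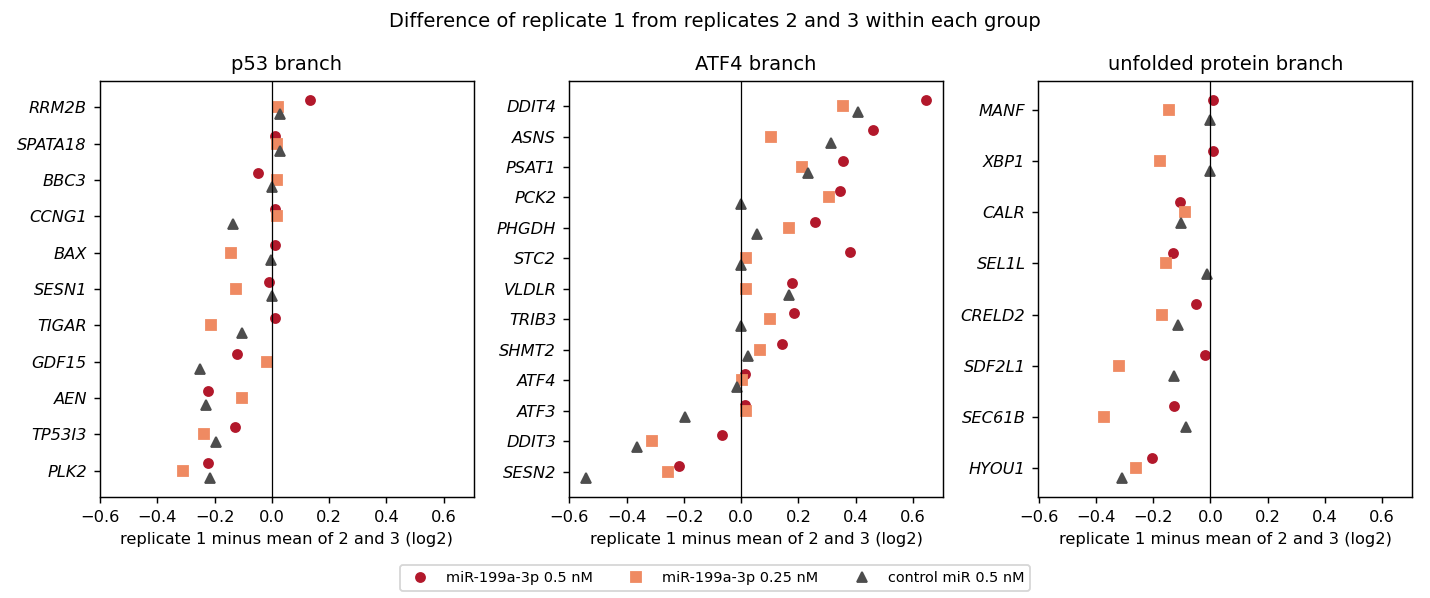
Difference of replicate 1 from the mean of replicates 2 and 3 (x axis, log2 units) for each measured gene, within the 0.5 nM group (circles), the 0.25 nM group (squares) and control cells (triangles). DDIT4, ASNS and PSAT1 lie above 0 in all 3 groups, and HYOU1, SESN2 and PLK2 lie below 0 in all 3.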

How the data were processed

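The deposited table holds log2 RMA intensities of 44629 rows on 9 arrays. Per the labels' protocols, a whole-transcript kit made the biotin-labelled targets. Oligo, affy and RMA stand in the submitters' processing notes, but no source used here gives their versions, their order or a genome build. The platform annotation gives exactly 1 symbol to 15835 rows, and the brightest row per gene was kept (14812 genes). Precision is limited by the number of arrays.

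Values of fewer than 10 digits in 0.25 nM replicate 3 were left out (19.1% of genes there). Arrays were shifted to one median over genes measured on all arrays. Limma 3.58.1 in R 4.3.3 was run over arrays (a mean per group) and, with an intensity trend, on the 3 group means (33.1 prior degrees of freedom), two-sided, with Benjamini-Hochberg adjustment over all genes at 0.05. Both were run on simulated data, where the test over arrays was required to perform only without noise between groups. Its false calls under such noise are not given here. The simulation is thus no check of its calls in these data. p-values over arrays measure only the spread between these samples.

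Array deviations from group means correlated between same-numbered replicates over 11977 genes. The r was 0.49 to 0.59 for replicate 1, 0.28 to 0.35 for replicate 2 and 0.14 to 0.28 for replicate 3. Replicates 2 and 3 correlated as well with each other across groups (0.16 to 0.36), so only replicate 1 stood apart. The numbers were taken to pair arrays, which these values do not show for replicates 2 and 3. The members, gene lists, tests and the rule for genes with per-array values (leading regulators, and the 2 largest rises and falls per branch) were chosen with earlier results of these data known. Alternatives are in the closing section.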

Additional observations from a re-analysis of the deposited data

Results flagged for a closer look

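MANF differed between the doses in opposite directions from control: 0.5 nM minus 0.25 nM was 0.626 (limma over the arrays, adjusted p = 4.00e-06), with levels of 7.60, 7.59 and 7.59 at 0.5 nM, 6.87, 7.003 and 7.03 at 0.25 nM and 7.43, 7.43 and 7.43 in control cells. Such opposite calls were made for 1 of 32 members and for 12.4% of all genes, in a test whose error is the spread within groups.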

How the results depend on the processing

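For both doses on group means no member passed under any alternative that kept group means, each array left out included, while the number of genes called, 18, became 0 without the shift and 0 without the intensity trend, 35 with the doubtful short values kept, 38 with the mean of all rows of a gene, 35 with the shift over all measured genes and 1 without replicate 1 of every group. With each array left out in turn it was 0 to 45: 0 without 0.25 nM replicate 1, 7 without 0.5 nM replicate 1, 11 without 0.25 nM replicate 2, 31 without control replicate 1, and 43 and 45 without 0.5 nM replicates 2 and 3. Limma over the 9 arrays for both doses called 9474 genes and 9 members without the replicate block, and 9918 and 17 with it. For each comparison over arrays, genes under the median level left out gave 3763 (0.5 nM), 3931 (0.25 nM) and 3624 (between doses), since fewer genes were tested. The replicate block gave 17 members at 0.25 nM in place of 11, and without replicate 1 of every group each comparison called 20. Without the shift calls also changed for further members, beside those given in the text. At 0.5 nM SESN1 lost its call as lower, and SHMT2, TRIB3 and SEL1L were called higher. At 0.25 nM SESN1, RRM2B, SPATA18, TIGAR, TRIB3 and XBP1 were called higher, with RRM2B at 0.15 and SPATA18 at 0.10. Of other genes named, MDM4, TP53INP1, CTH and TXNRD1 lost their calls at 0.25 nM, and ERO1A at 0.5 nM. ERN1 was then called higher at 0.5 nM, and JDP2, HSF1, TYR, CARS1 and CBS at 0.25 nM. YARS1 turned from called lower to called higher at 0.5 nM, at 0.016 (limma adjusted p = 0.0279). Leaving out 1 array or keeping short values ended calls, among the genes with per-array values, only for HYOU1 at 0.25 nM, as given in the text, and between the doses for STC2, SDF2L1 and SEL1L. ATF4 at 0.25 nM turned to 0.046 without the shift (limma adjusted p = 2.56e-04). Replicate 1 against replicates 2 and 3 called 3 genes without the shift, 0 with a trend, and 0 to 278 genes with 0 to 2 members when 1 group was left out (278 and 2 without the 0.5 nM group). Between the doses the replicate block added TP53I3, PLK2, AEN, TRIB3, VLDLR and HYOU1, and it changed no call named in the text other than these and those given beside it. Where no cause is given it was not tested. The shift over all measured genes, the fits without replicate 1 of every group, the fit over all rows and the replicate comparison were chosen after seeing the data.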

Other observations

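Related stress programmes were measured beside the 3 pathways. HMOX1, haem oxygenase 1, an enzyme induced by oxidative stress, had levels of 6.97, 7.42 and 7.42 at 0.5 nM, 7.29, 7.55 and 7.55 at 0.25 nM and 6.56, 6.85 and 6.89 in control cells. Every mimic array lay above every control array. Its changes were 0.50 ± 0.15 (limma over the arrays, adjusted p = 0.0236) and 0.69 ± 0.15 (adjusted p = 0.00538), and on group means 0.60 ± 0.19 (limma adjusted p = 0.373, unadjusted p = 0.00287). The other 5 of 6 oxidative stress genes measured lay below control at both doses, as did 34.6% of all genes. Among them NFE2L2, the factor NRF2 that raises HMOX1 and TXNRD1, lay at -0.21 and -0.25, and TXNRD1, thioredoxin reductase, at -0.32 and -0.44 (unadjusted p on group means 0.0118), where limma over the arrays missed TXNRD1 at 0.5 nM (adjusted p = 0.0948) but called it with the block (adjusted p = 0.00108). Without the shift HMOX1 and NFE2L2 stood at 0.59 and -0.12 at 0.5 nM, and at 0.85 and -0.09 at 0.25 nM. KEAP1 then stood at 0.06 at 0.25 nM. With the shift, SRXN1, KEAP1 and OSGIN1 lay above control within replicate 1 at both doses, while TXNRD1 and NFE2L2 lay below it. The differences of SRXN1, KEAP1 and OSGIN1 there were 0.09, 0.02 and 0.13 at 0.5 nM, and 0.13, 0.02 and 0.32 at 0.25 nM. NFE2L2 held the same value on all arrays of each group before the shift, so it could not differ by replicate.

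Of 15 heat shock genes 9 were measured, with median changes of 0.01 at 0.5 nM and -0.01 at 0.25 nM, and 0 passed on group means (0 at an unadjusted p under 0.05). Over the arrays limma called 2 higher and 1 lower at each dose, where it called 33.2% of all genes higher and 29.8% lower at 0.5 nM, and 30.3% and 33.9% at 0.25 nM. HSPA1A and HSPA1B, near-identical inducible HSP70 genes that the array may not tell apart, lay at 0.01 and 0.05 at 0.5 nM and -0.14 and -0.09 at 0.25 nM, and passed only at 0.25 nM with the block (limma over the arrays, adjusted p = 0.0293 and 0.0218). HSF1, the regulator of the heat shock response, changed by 0.24 at 0.5 nM (limma over the arrays, adjusted p = 0.00220) and lay at 0.01 at 0.25 nM.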
